A study of Mus musculus with 1 sample.

Results

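Notch signalling passes between cells that touch each other. A ligand of the Jagged or Delta-like type on the surface of a cell binds a NOTCH receptor on its neighbour, the receptor is cut by an ADAM protease and then by gamma-secretase, and the freed intracellular domain joins the DNA-binding protein RBPJ in the nucleus to switch on genes of the HES and HEY families. In the testis this exchange is known from the seminiferous tubule, where germ cells bear Jagged ligands, Sertoli cells bear receptors, and the output in Sertoli cells lowers Gdnf, the growth factor that maintains spermatogonial stem cells (SSCs). Outside the tubule, NOTCH3 is known as the receptor of mural cells, the contractile cells that wrap small vessels.

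The 9 genes described here, chosen by symbol, are the receptors Notch1, Notch2 and Notch3, the ligands Jag1 and Jag2, and the target genes Hes1, Hey1, Heyl and Nrarp, all listed among the 27998 genes of the count table. They were followed through the cells of 1 single-cell RNA library from wild-type C57BL/6 mice at postnatal day 8, for which testis cells of 3 mice were combined in equal numbers. THY1 beads enriched spermatogonia and some unselected testis cells were added back, so the shares of cell types are set by this mixture. No member is the target of a mutation in these mice, and the Zscan2 knockout library of the series was not analysed here. Because the mice share a library there is no replicate, no test was made, and every interval is an exact 95% interval that covers counting error only.

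Of 970 barcodes with 2655 to 44915 unique molecular identifiers (UMIs), 920 were kept. Clusters were formed without the Notch pathway genes and named from other markers, which gave 324 germ cells and 596 somatic cells. By germ cell stage there were 111 cells of the SSC-like class, 81 of the progenitor-like class and 132 of the differentiating-like class. The progenitor-like class includes a cell with mostly red blood cell transcripts, which was kept. On the somatic side 256 cells were Sertoli-like, 92 peritubular myoid-like, 188 stromal-like and 35 macrophage-like, and 25 belonged to a mixed cluster. Median depth was 18216.5 UMIs in germ cells and 8193.5 in somatic cells. The 6 germ cell markers summed to 1350 CPM (UMIs per 1000000 UMIs of the class) in germ cells and 31.7 CPM in somatic cells. The 10 Sertoli markers summed to 10236 CPM in Sertoli-like and 123 CPM in germ cells, with 9 of them read in germ cells, and Rhox5 had 10 UMIs in Sertoli-like and 19 in germ cells. Only 2 endothelial-like cells and no Leydig-like cluster were found, so those cells, a known site of Notch ligands and receptors in vessels and interstitium, are barely covered. Single cells of other classes also carried such markers, in CPM of the cell's own UMIs. The endothelial list reached 4696 CPM in a stromal-like cell, and the Leydig list 17641 CPM in a Sertoli-like and 8384 CPM in a stromal-like cell. These cells stayed in their classes. A level below is the summed UMIs of a gene in a class, in CPM. Since the library reads transcripts from their 3′ ends, levels are compared between cell types and not between genes.

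Levels of the 9 genes fell into 4 patterns among the 7 classes of at least 20 cells, which leave out 10 pericyte-like cells described further on. Notch1 and Notch2 were highest in Sertoli-like cells, Notch3 and Heyl were read mostly in contractile and stromal cells, Jag2, Hey1 and Nrarp were highest in germ cells, and Hes1 was found in most classes. Jag1 was thinly spread over germ and somatic classes. Of the 9 genes, 6 had their highest level in a somatic class among these 7, most of which are somatic. The share over all genes was not computed for this count. For Hes1 and Jag1 the highest somatic class did not exceed the next class, a germ cell class, beyond counting error. Between all somatic and all germ cells, 4 were at least 2-fold higher in somatic cells (Notch1, Notch2, Notch3 and Heyl) and 3 at least 2-fold lower (Jag2, Hey1 and Nrarp). These shares stand beside a background in which 26.7% of the 11027 genes with at least 50 UMIs were at least 2-fold higher in somatic cells and 24.0% at least 2-fold lower. Jag2, with 35 UMIs, is below that minimum. Of the 8 members above it, 4 were at least 2-fold higher and 2, Hey1 and Nrarp, at least 2-fold lower. The share that was lower is close to that of all genes. The median log2 ratio of these 8 was 0.89, against -0.07 for all genes, and leaves out Jag2, the member with the lowest ratio. Mitochondrial UMIs differed between the classes compared: 91.9% of SSC-like and 78.9% of Sertoli-like cells had at least 5% of them, against 0% of the peritubular myoid-like class and 3.19% of the stromal-like class. Of the germ cells, 62 formed a shallow cluster with a median of 3905 UMIs. There Notch1, Jag1, Jag2 and Heyl had no UMI, which allows up to 9.62 CPM, more than the 5.94 CPM of Jag2 in all germ cells. The part of either in the levels was not tested beyond the settings given at the end.

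**Figure D1:**
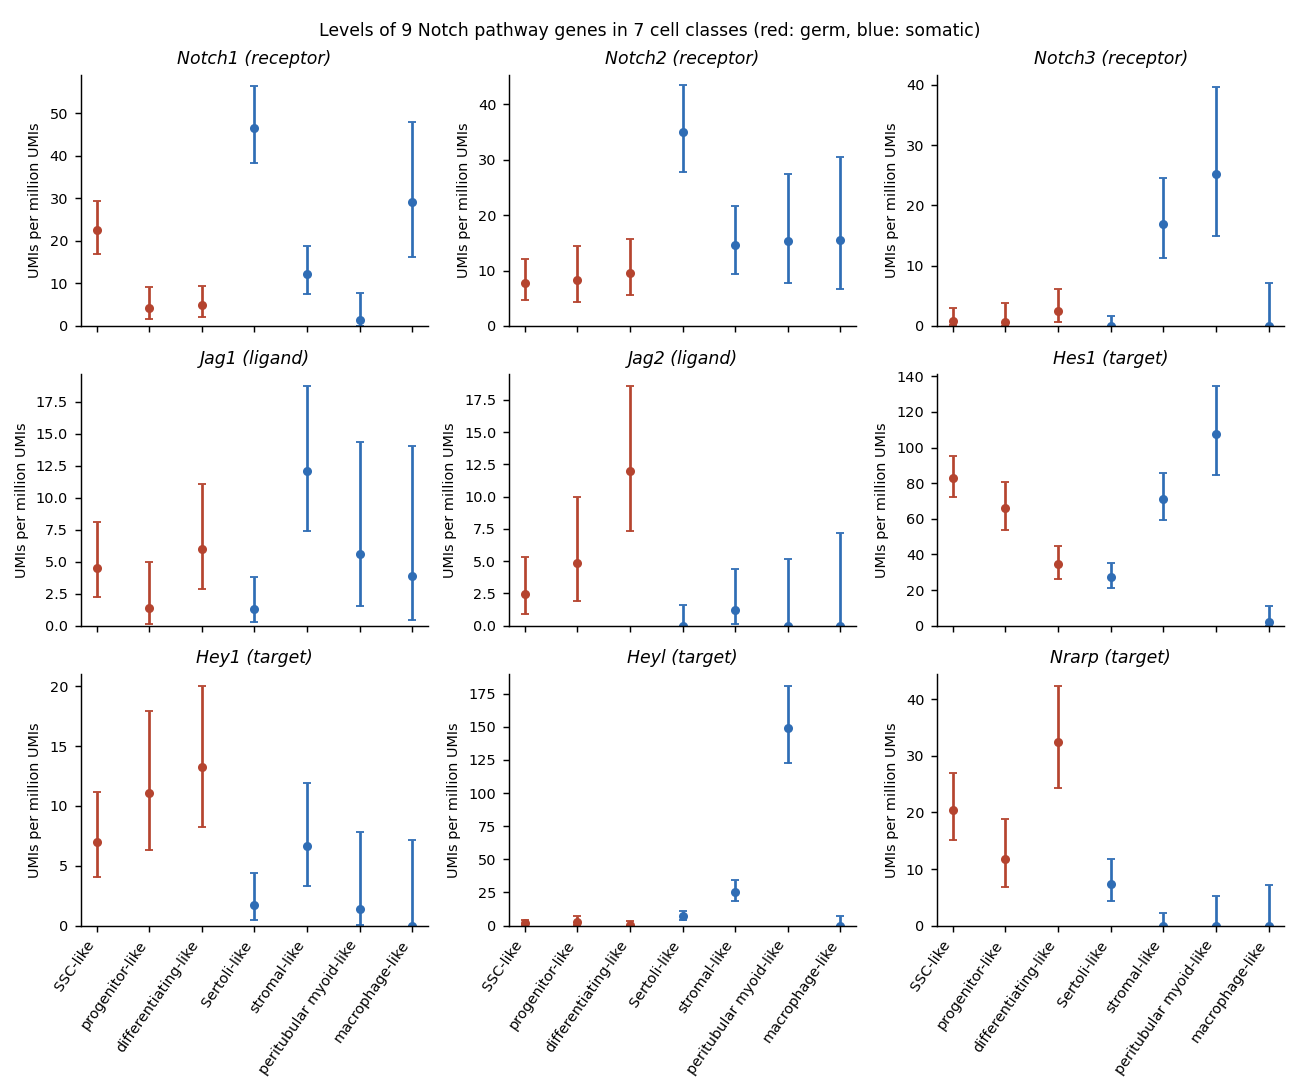
Level of each Notch pathway gene (y axis, CPM) in 7 cell classes (x axis, germ cell classes in red and somatic classes in blue), with exact 95% Poisson intervals. Notch1 and Notch2 peak in Sertoli-like cells at 46.6 and 35.0 CPM, Heyl in peritubular myoid-like cells at 149 CPM, and Jag2 and Nrarp in differentiating-like germ cells at 12.0 and 32.4 CPM.

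Promoters of 6 of the 9 genes were in the RefSeq table for GRCm38.p6 (Notch1, Notch2, Notch3, Jag1, Jag2 and Nrarp), each a window of 300 bases with 250 before and 50 after the transcription start. Windows of 4 genes are printed for comparison, Nrarp and Jag2 as the members most biased to germ cells, Jag1 as the other ligand and Notch3 as the receptor with the strongest somatic bias, 5′ to 3′ on the strand of the gene. Capitals mark letters shared with the HES and HEY binding motifs CACGTG or CACGCG on either strand.

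Nrarp, chr2:25180508-25180807, plus strand: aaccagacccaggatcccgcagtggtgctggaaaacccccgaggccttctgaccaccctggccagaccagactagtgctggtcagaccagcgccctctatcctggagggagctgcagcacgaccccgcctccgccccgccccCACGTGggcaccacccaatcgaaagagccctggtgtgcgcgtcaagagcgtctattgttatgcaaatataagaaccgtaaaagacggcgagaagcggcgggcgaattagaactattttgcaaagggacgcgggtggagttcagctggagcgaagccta

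Jag2, chr12:112929446-112929745, minus strand: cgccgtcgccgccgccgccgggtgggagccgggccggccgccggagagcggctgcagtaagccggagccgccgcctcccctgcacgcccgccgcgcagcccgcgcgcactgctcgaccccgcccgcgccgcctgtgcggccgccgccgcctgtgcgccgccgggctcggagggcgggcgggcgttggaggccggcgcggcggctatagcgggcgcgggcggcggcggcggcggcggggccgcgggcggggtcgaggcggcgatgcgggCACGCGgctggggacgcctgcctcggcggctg

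Jag1, chr2:137116471-137116770, minus strand: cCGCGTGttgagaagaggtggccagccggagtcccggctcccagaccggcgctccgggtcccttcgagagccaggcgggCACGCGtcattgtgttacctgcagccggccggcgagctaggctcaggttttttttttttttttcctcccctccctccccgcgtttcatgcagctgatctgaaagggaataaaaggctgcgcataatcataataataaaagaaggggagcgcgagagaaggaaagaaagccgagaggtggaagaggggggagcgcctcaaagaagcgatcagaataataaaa

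Notch3, chr17:32166841-32167140, minus strand: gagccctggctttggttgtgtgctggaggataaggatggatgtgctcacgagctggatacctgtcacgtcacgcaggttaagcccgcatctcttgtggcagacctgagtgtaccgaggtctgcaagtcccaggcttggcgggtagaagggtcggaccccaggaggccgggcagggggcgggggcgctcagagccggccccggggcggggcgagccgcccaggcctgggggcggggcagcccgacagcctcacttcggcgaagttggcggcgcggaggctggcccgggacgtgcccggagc

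The windows of 4 of the 6 genes held such a motif. Nrarp held CACGTG 108 bases before its start, a motif in 7.15% of 32851 promoters, and CACGCG stood in Jag2 and Notch2 and 2 times in Jag1, a motif in 9.27% of them. The RBPJ motifs GTGGGAA (6.38% of promoters) and TGGGAA (25.6%, which includes the longer motif) and the TATA motif TATAAA (13.6%) were not in any of the 6 windows. These matches describe letters only.

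Notch1 (ENSMUSG00000026923), a receptor widely used in stem cell compartments, is a protein-coding gene on the minus strand of chromosome 2 from 26457903 to 26516663 of GRCm38. It had 222 UMIs, of which 108 lay in Sertoli-like cells and 55 in SSC-like cells. Its level was 46.6 CPM in Sertoli-like cells (38.2 to 56.3), 29.1 CPM in macrophage-like cells (16.3 to 47.9), 22.5 CPM in SSC-like cells (17.0 to 29.3) and 12.1 CPM in stromal-like cells (7.39 to 18.7). Progenitor-like cells had 4.14 CPM (1.52 to 9.02) and differentiating-like cells 4.80 CPM (2.07 to 9.47), while peritubular myoid-like cells had 1 UMI. Neither the step from Sertoli-like to macrophage-like cells nor that from macrophage-like to SSC-like cells exceeded counting error. Sertoli-like cells exceeded the other somatic cells 3.15-fold (2.20 to 4.56).

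Notch2 (ENSMUSG00000027878), the close relative of Notch1, lies on the plus strand of chromosome 3 from 98013527 to 98150361. It had 175 UMIs and a level of 35.0 CPM in Sertoli-like cells (27.8 to 43.4). Macrophage-like, peritubular myoid-like and stromal-like cells had 15.5, 15.4 and 14.5 CPM, and the germ cell classes had 9.61 CPM (differentiating-like), 8.29 CPM (progenitor-like) and 7.78 CPM (SSC-like). Below the Sertoli-like level, which exceeded the next class by 1.17 on the log2 scale (0.13 to 2.43), no step between neighbours in this order exceeded counting error. Notch2 therefore lacked the SSC-like peak of Notch1 within germ cells, with an SSC-like to differentiating-like ratio of 0.81 (0.39 to 1.68). Sertoli-like cells exceeded the other somatic cells 2.26-fold (1.56 to 3.31).

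Notch3 (ENSMUSG00000038146), the mural cell receptor, lies on the minus strand of chromosome 17 from 32120820 to 32166852. It had no UMI in the 256 Sertoli-like cells, a count of 0 that allows up to 1.29 CPM and a share of cells with a UMI of up to 1.17%. Peritubular myoid-like cells had 25.1 CPM (14.9 to 39.7) and stromal-like cells 16.9 CPM (11.3 to 24.5), a difference within counting error. Germ cells had 7 UMIs, or 1.26 CPM, and macrophage-like cells none. Among somatic cells the Sertoli-like level was at least 15.1-fold lower than that of the other cells, the lower end of the exact interval.

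Of the 5 members with at least 50 UMIs among somatic cells, 2 were at least 2-fold higher in Sertoli-like than in other somatic cells (Notch1 and Notch2) and 3 at least 2-fold lower (Notch3, Hes1 and Heyl). Over the 8764 genes with at least 50 UMIs, 21.8% were at least 2-fold higher and 14.4% at least 2-fold lower. In Sertoli-like cells 74 of 256 (28.9%) had a Notch1 UMI and 64 (25.0%) a Notch2 UMI, and 24 had both. After each cell was thinned to 5000 UMIs, 17.8% of 236 Sertoli-like cells had a Notch1 UMI, against 12 of 109 SSC-like cells and 1 of 88 peritubular myoid-like cells, with 20, 2 and 4 shallower cells left out.

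The Sertoli-like cells fell into 3 clusters, of 133, 79 and 44 cells. The cluster of 79 cells stood apart by Uchl1, a ubiquitin hydrolase, at 202 CPM against 29.7 CPM in the others, with a UMI in 50 cells. The cluster of 44 stood apart by the dividing-cell genes Mki67 and Top2a. Uchl1 is also one of the markers by which differentiating-like germ cells were named, and had 663, 772 and 1456 CPM in the first-step germ cell clusters. Whether germ cell RNA takes part in its level in the Sertoli-like cluster was not tested. Notch2 was 55.6 CPM in the Uchl1-rich cluster and 26.0 CPM in the other Sertoli-like cells, a 2.14-fold difference (1.35 to 3.39), and Notch1 was 64.1 and 39.0 CPM, a 1.64-fold difference (1.10 to 2.45). Median depth was 7910 UMIs in that cluster, 8262 in the largest and 10326.5 in the dividing cluster. Hes1, Heyl and Nrarp did not differ beyond counting error between the Uchl1-rich cluster and the rest (ratios of 0.90, 1.05 and 0.71), and neither receptor did between the dividing cluster and the rest.

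**Figure D2:**
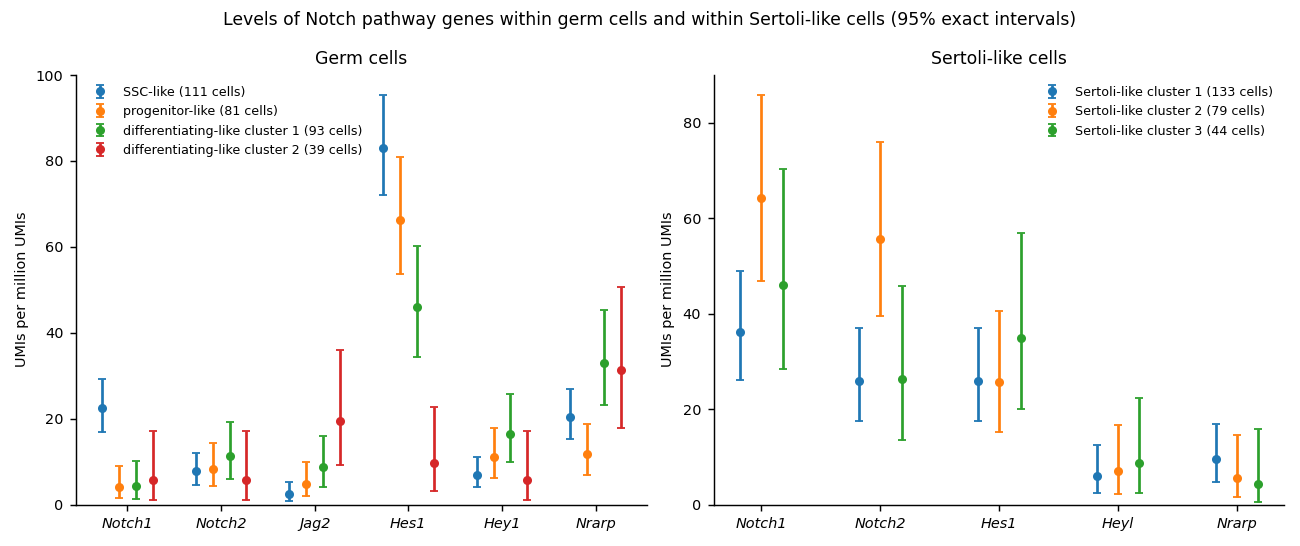
Level (y axis, CPM) of the Notch pathway genes named on the x axis in SSC-like, progenitor-like and the 2 clusters of differentiating-like cells (left) and in the 3 Sertoli-like clusters (right), with exact 95% Poisson intervals. Among the germ cells Notch1 and Hes1 are highest in SSC-like cells, and among the Sertoli-like clusters cluster 2 of the Sertoli-like cells, the Uchl1-rich one, has the highest Notch2 level at 55.6 CPM.

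The mixed cluster of 25 cells held cells of different kinds. By their largest sum of marker UMIs, 10 were pericyte-like, 13 T cell-like and 2 endothelial-like, a split made after the cluster's genes had been seen. The peritubular myoid list was not part of this split. The pericyte-like cells, mural cells of small vessels, carried 10 to 81 UMIs of the pericyte list (Rgs5, Abcc9, Kcnj8, Higd1b, Ndufa4l2, Cspg4 and Mcam) and at most 1 of the T cell list, while the T cell-like cells carried 0 of the pericyte list. The pericyte-like cells also carried 4 to 153 UMIs of the peritubular myoid list, and in some of them this list had the larger sum. Its level was 8195 CPM there and 11640 CPM in peritubular myoid-like cells. All 10 pericyte-like cells had a Notch3 UMI, with 1 to 8 UMIs in a cell and 29 in all. They held 35.4% of the Notch3 UMIs while being 1.09% of the kept cells. Their Notch3 level of 467 CPM (313 to 671) exceeded that of peritubular myoid-like cells 18.6-fold (9.97 to 35.5), at a median depth of 5976.5 UMIs against 7385.5. They held the other receptors too, with 6 Notch1 UMIs in 5 cells (96.6 CPM, 35.4 to 210) and 3 Notch2 UMIs in 2 cells (48.3 CPM, 9.96 to 141). Their Notch1 level exceeded that of the other somatic cells 3.48-fold (1.26 to 7.76) and that of peritubular myoid-like cells, which rests on 1 UMI, 69.2-fold (8.39 to 3182). Both receptor intervals overlap those of Sertoli-like cells.

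Heyl (ENSMUSG00000032744), a HEY family repressor used as a readout of Notch in smooth muscle, lies on the plus strand of chromosome 4 from 123233556 to 123249875. Of the pericyte-like cells 8 of 10 had a Heyl UMI, at 274 CPM (159 to 438). Each of these 8 also had Notch3, since all 10 did. Peritubular myoid-like cells, the smooth muscle-like sheath of the tubules, had 107 of the 192 Heyl UMIs, with a level of 149 CPM (122 to 181) and a UMI in 58 of 92 cells (63.0%). Stromal-like cells had 25.4 CPM (18.3 to 34.3), Sertoli-like cells 6.90 CPM (3.95 to 11.2), germ cells 1.62 CPM and macrophage-like cells no UMI. After thinning to 5000 UMIs, 52.3% of peritubular myoid-like cells and 0.36% of germ cells had a Heyl UMI. Peritubular myoid-like cells exceeded stromal-like cells 5.88-fold (4.08 to 8.61) for Heyl but 1.48-fold (0.77 to 2.78) for Notch3. Within the peritubular myoid-like class 13 cells had Notch3, and 6 of these also had Heyl.

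Markers of pericytes lay at 64.2 CPM in peritubular myoid-like cells, 43.0 CPM in stromal-like cells and 8018 CPM in pericyte-like cells. Of the 28 Notch3 UMIs of stromal-like cells, 18 lay in the 132 cells with no UMI of the pericyte list, as did 7 of the 18 in peritubular myoid-like cells (52 such cells) and 52 of the 107 Heyl UMIs there. Whether pericytes in those classes take part in their Notch3 level was otherwise not tested. In peritubular myoid-like cells 3 of the 5 members with at least 50 UMIs were at least 2-fold higher than in other somatic cells (Notch3, Hes1 and Heyl) and 1 at least 2-fold lower (Notch1), against 5.85% and 23.5% of all 8764 genes. The Notch3 ratio there was 2.05 (1.13 to 3.53), and its log2 value of 1.03 ranged from 0.06 with a mitochondrial limit of 5% to 3.04 when vst selected the variable genes, where the pericyte-like cells joined this class. Without the mixed cluster the log2 value was 2.01, above the 1.03 with it.

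**Figure D3:**
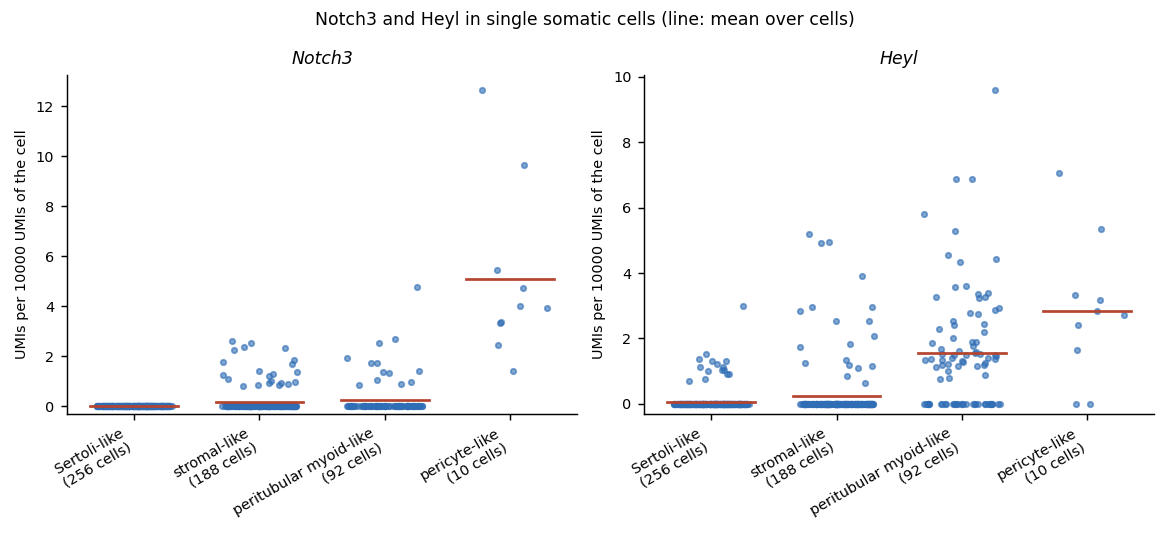
UMIs of Notch3 (left) and Heyl (right) per 10000 UMIs of the cell (y axis) in single cells of 4 somatic classes (x axis), a point for each cell with random horizontal spread and a line at the mean over cells. All 10 pericyte-like cells lie above 0 for Notch3, all 256 Sertoli-like cells lie at 0, and 58 of 92 peritubular myoid-like cells lie above 0 for Heyl.

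Jag1 (ENSMUSG00000027276), a ligand of vessels and many epithelia, lies on the minus strand of chromosome 2 from 137081456 to 137116644. It had 56 UMIs spread thinly, with 20 in stromal-like cells (12.1 CPM, 7.39 to 18.7), 11 in SSC-like, 10 in differentiating-like and 3 in Sertoli-like cells. No step between neighbours in its order of levels exceeded counting error. Between somatic and germ cells its ratio was 1.49 (0.85 to 2.65), so no difference was detectable at this depth. Stromal-like cells exceeded the other somatic cells 3.45-fold (1.63 to 7.55) and Sertoli-like cells were 7.62-fold below the others (2.37 to 39.0), a log2 ratio of -2.93. With a mitochondrial limit of 5%, which left 54 Sertoli-like cells, this log2 ratio was -0.58. A sum of 0 enters a ratio as 3 counts, so the value of -0.58 can be a bound.

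Jag2 (ENSMUSG00000002799), the second Jagged ligand, lies on the minus strand of chromosome 12 from 112907819 to 112929776. Of its 35 UMIs 33 were in germ cells. Differentiating-like cells had 20 UMIs (12.0 CPM, 7.34 to 18.6), progenitor-like cells 7 (4.83 CPM, 1.94 to 9.96) and SSC-like cells 6 (2.46 CPM, 0.90 to 5.35), while Sertoli-like, peritubular myoid-like and macrophage-like cells had none. The differentiating-like level exceeded the SSC-like level 4.89-fold (1.89 to 14.9). Germ cells exceeded somatic cells 15.9-fold (4.07 to 137), a log2 ratio of somatic to germ cells of -3.99. With a mitochondrial limit of 5%, which left 67 germ cells at a median of 5310 UMIs, this log2 ratio was -1.74. Jag1 and Jag2 were found together in 1 germ cell.

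Sertoli-like cells had few UMIs of the 2 Jagged ligands. A receptor UMI was present in 114 of 256 Sertoli-like cells (44.5%) and a Jag1 or Jag2 UMI in 3 (1.17%), and no Sertoli-like cell had both. With only 3 cells that had a Jagged UMI, the lack of a cell with both cannot show that they exclude each other. Among differentiating-like cells 23 of 132 had a receptor UMI and 23 a Jag1 or Jag2 UMI, and 9 had both. Median depth was 8344.5 UMIs in Sertoli-like and 10935.5 in differentiating-like cells.

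Nrarp (ENSMUSG00000078202), a target gene whose product feeds back on the Notch complex, lies on the plus strand of chromosome 2 from 25180758 to 25183339. Of 146 UMIs, 121 were in germ cells. Differentiating-like cells had 32.4 CPM (24.4 to 42.3), SSC-like cells 20.5 CPM (15.2 to 27.0), progenitor-like cells 11.7 CPM (6.84 to 18.8) and Sertoli-like cells 7.34 CPM (4.27 to 11.7). Stromal-like, peritubular myoid-like and macrophage-like cells had no UMI, which allows up to 1.82, 4.19 and 5.81 CPM. Differentiating-like cells exceeded progenitor-like cells 2.76-fold (1.58 to 5.08) and SSC-like cells 1.58-fold (1.06 to 2.38). The SSC-like to progenitor-like ratio of 1.74 had an interval that includes equality (0.99 to 3.23). The pericyte-like cells had 6 Nrarp UMIs in 6 of 10 cells (96.6 CPM, 35.4 to 210). This level was at least 13.6-fold above that of the peritubular myoid-like cells, the lower end of the exact interval.

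Hes1 (ENSMUSG00000022528), the general HES family repressor, lies on the plus strand of chromosome 16 from 30064384 to 30067796 and was the member with the most UMIs, 634 in 295 cells. Peritubular myoid-like cells had 108 CPM (84.9 to 134), SSC-like cells 83.1 CPM (72.1 to 95.4), stromal-like cells 71.4 CPM (59.1 to 85.5) and progenitor-like cells 66.3 CPM (53.7 to 81.0). No step between neighbours among these 4 classes exceeded counting error. Differentiating-like cells were lower at 34.8 CPM (26.5 to 45.0), Sertoli-like cells had 27.6 CPM (21.3 to 35.3), and macrophage-like cells had 1 UMI in 35 cells despite a median depth of 13010 UMIs. Somatic and germ cells as a whole were close, with 1.24-fold (1.06 to 1.46) more in germ cells, a direction that turned under a stricter mitochondrial limit.

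Hes1 and Notch1 were lower in differentiating-like than in SSC-like cells, and Jag2 and Nrarp were higher. SSC-like cells exceeded differentiating-like cells 2.39-fold (1.77 to 3.25) for Hes1 and 4.69-fold (2.22 to 11.4) for Notch1. Of the 3 members with at least 50 UMIs in these 2 classes, 2 were at least 2-fold higher in SSC-like cells (Notch1 and Hes1) and 0 at least 2-fold lower, against 6.49% and 5.28% of 7307 genes. For Notch1 the fall lay between SSC-like and progenitor-like cells (5.44-fold, 2.34 to 15.5), with no further change detectable. The split between these 2 classes is weakly marked. By marker score each had the other's name second, and the top 10 genes of neither cluster held a gene of its own marker list. At a resolution of 0.3 SSC-like and progenitor-like cells were not separated, so the Notch1 step between them has no value there. It was not recomputed under the other settings, where the split also moved. At a resolution of 1.2, 44 cells were named SSC and clusters of 78 and 60 progenitor. With 20 principal components 82 cells were named SSC and 115 progenitor. For Hes1 the fall lay later, between progenitor-like and differentiating-like cells taken as a whole (1.90-fold, 1.36 to 2.68), a step likewise not recomputed. The SSC-like cells are the deepest class, with a median of 22554 UMIs, and after thinning to 5000 UMIs the share of cells with a Hes1 UMI was 29.4% in the SSC-like class, then 22.2% in the progenitor-like class and 16.3% in the differentiating-like class. Unthinned, these shares were 62.2%, 51.9% and 28.0%. For Nrarp the thinned shares were 7.34%, 2.78% and 17.3%.

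The differentiating-like cells were 2 clusters, of 93 and 39 cells, the smaller led by Esx1 and Prss50 and the larger by Stra8 and Crabp1, with median depths of 13310 and 8146 UMIs. Hes1 was 46.0 CPM in the larger (34.4 to 60.1) and 9.77 CPM in the smaller (3.17 to 22.8), a 4.71-fold difference (1.90 to 15.1). The larger cluster's interval overlaps that of progenitor-like cells (53.7 to 81.0), and the ratio between them was not computed. The Hes1 step from progenitor-like to differentiating-like cells given above therefore pools 2 unlike clusters. Nrarp was 33.0 and 31.3 CPM, a difference within counting error. Jag2 was 8.67 and 19.5 CPM, with an interval of the ratio that includes equality (0.84 to 6.03).

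Hey1 (ENSMUSG00000040289), a HEY family repressor, lies on the minus strand of chromosome 3 from 8663359 to 8667256. Of its 71 UMIs 55 were in germ cells. Differentiating-like cells had 13.2 CPM (8.28 to 20.004), progenitor-like cells 11.1 CPM (6.32 to 17.9), SSC-like cells 6.96 CPM (4.06 to 11.2) and stromal-like cells 6.66 CPM (3.32 to 11.9), with no step between these neighbours beyond counting error. Sertoli-like and peritubular myoid-like cells had 1.73 and 1.40 CPM. Germ cells exceeded somatic cells 3.32-fold (1.873 to 6.2003), so the family members Hey1 and Heyl lay on opposite sides of the germ and somatic divide.

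In stromal-like cells none of the 5 members with at least 50 UMIs was at least 2-fold higher than in other somatic cells and 1, Notch1, was at least 2-fold lower, against 7.72% and 21.4% of 8764 genes. The stromal-like ratio was 1.66 (1.30 to 2.13) for Hes1 and 0.67 (0.46 to 0.95) for Heyl, and the latter changed direction under other settings. The stromal-like log2 ratio of Notch3, 0.42 (-0.31 to 1.12), ranged from -0.70 with a mitochondrial limit of 5% to 2.80 with no limit, where the pericyte-like cells joined the stromal-like class, and was 1.74 without the mixed cluster.

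RNA released from broken cells can add a low level of a gene to other classes, and it was not measured here. For scale, the 10 Sertoli markers reached a median of 1.08% of their own level in germ cells (0 to 79.3%). The 7 peritubular myoid markers reached 0.25% there (0.14 to 0.71%). The 6 germ cell markers reached a median of 2.36% in Sertoli-like cells (1.18 to 13.6%). The germ cell level of Notch1 was 26.7% of the Sertoli-like level, that of Notch2 24.2%, and that of Notch3 5.01% and of Heyl 1.08% of the peritubular myoid-like level. The somatic level of Jag2 was 6.28% of its germ cell level, and the Sertoli-like levels of Nrarp and Hey1 were 33.7% and 17.4% of theirs. The part of free RNA in the lowest of these values was not tested.

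Around the 9 members stand 64 other genes of the pathway, a list chosen by role and given here by counts. Of 54 with at least 50 UMIs, 22 were at least 2-fold higher in somatic cells and 7 at least 2-fold lower, with a median log2 ratio of 0.62. The counts by role that follow stand beside the same shares over all genes, 26.7% higher and 24.0% lower. Among genes that process the receptor, 6 of 9 were at least 2-fold higher in somatic cells and none lower. Adam10, the protease of the first cut, had 72.5 CPM in Sertoli-like and 18.4 CPM in germ cells, Aph1a of gamma-secretase 104 and 24.7 CPM, and Furin, which matures the receptor, 67.7 and 14.8 CPM, whereas Psenen, also of gamma-secretase, had 154 and 200 CPM. In the nuclear complex 3 of 7 were higher and none lower, and Rbpj itself was close, with 35.5 CPM in somatic and 39.6 CPM in germ cells. The coactivators Crebbp, Ep300 and Snw1 had 76.7, 24.1 and 96.7 CPM in somatic and 131, 19.98 and 137 CPM in germ cells.

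**Figure D4:**
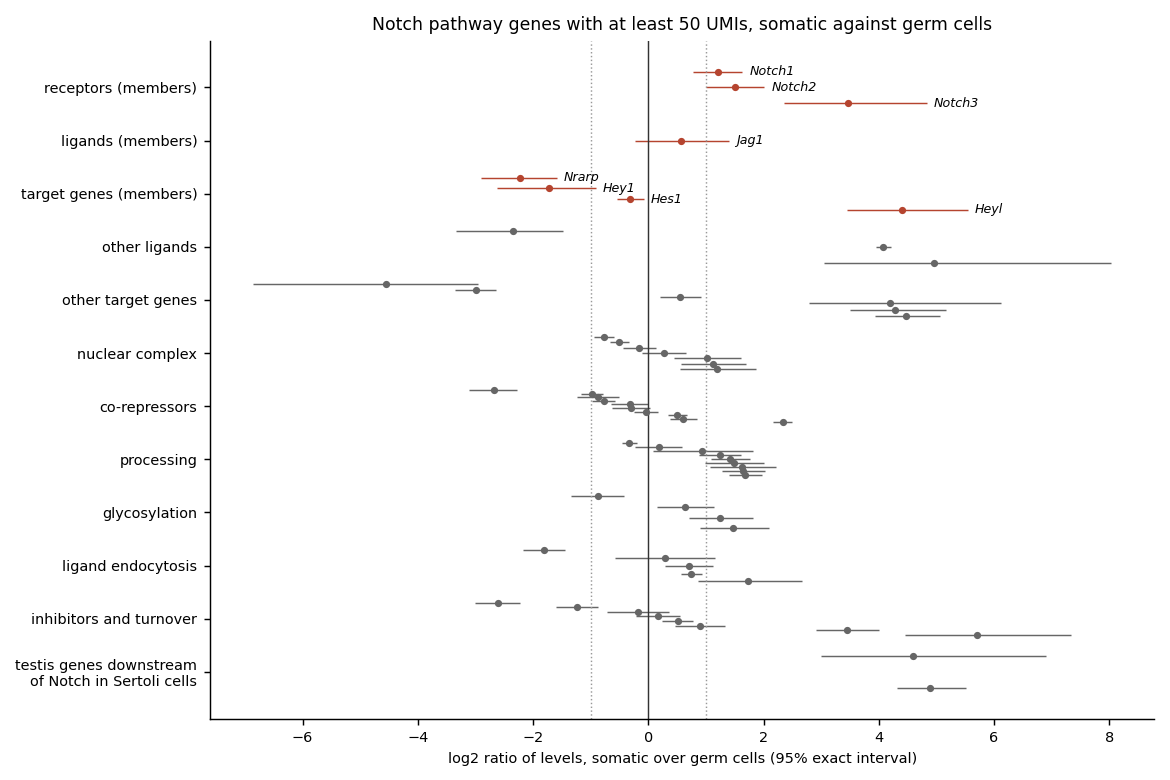
log2 ratio of levels between somatic and germ cells (x axis, positive when higher in somatic cells) for each Notch pathway gene with at least 50 UMIs, grouped by role (y axis), with exact 95% intervals and dotted lines at 2-fold. The 8 members shown are in red, from Nrarp at -2.22 to Heyl at 4.40, and Jag2, with 35 UMIs, is not drawn.

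Of the other ligands with at least 50 UMIs, 2 of 3 were at least 2-fold higher in somatic cells (Dlk1 and Dner) and 1 lower (Dll3). Dlk1, a Delta-like protein that lacks the receptor-binding domain of classical ligands, had 5382 CPM in stromal-like and 99.7 CPM in germ cells. Dner, another non-classical ligand, had 81.0 CPM in peritubular myoid-like cells and 2 UMIs in germ cells. Dll3 had 69 of 82 UMIs in germ cells, with 25.8 CPM in differentiating-like cells, and all 17 UMIs of Dlk2 lay in germ cells. The receptor Notch4 had 30 of 38 UMIs in germ cells.

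Of the genes listed as other targets 3 of 6 were at least 2-fold higher in somatic cells and 2 at least 2-fold lower. Whether each of them responds to Notch in these cells was not tested, so these counts do not measure Notch output. Id1 had 277 CPM in stromal-like cells, Dtx1 100.97 CPM in Sertoli-like and 2.52 CPM in germ cells, and the cyclin gene Ccnd1 109 CPM in germ and 13.8 CPM in somatic cells, whereas Hes6 had 30.6 and 20.9 CPM in somatic and germ cells. Hes5, named after its values were seen, had 73 of 76 UMIs in germ cells, as did Hey1 and Nrarp with most of theirs. Of the co-repressors 1 of 10 was at least 2-fold higher in somatic cells (Aes, 316 and 62.8 CPM) and 1 lower, with Ncor1 at 133 and 93.97 CPM, Hdac1 at 66.4 and 131 CPM and Cir1 at 62.7 and 107 CPM.

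Of the glycosylation genes, which tune the receptor to its ligands, 2 of 4 were higher (Lfng, 25.0 CPM in Sertoli-like and 7.38 CPM in germ cells, and Rfng, 17.0 CPM in somatic and 6.12 CPM in germ cells) and none lower. Poglut1 and Pofut1 had 11.6 and 16.8 CPM in somatic and 21.2 and 10.8 CPM in germ cells. Of the genes of ligand endocytosis 1 of 5 was higher (Mib2, 8.96 and 2.70 CPM) and 1 lower (Epn2, 15.5 and 54.2 CPM), with Mib1 at 24.1 and 14.8 CPM and Epn1 at 118 and 70.4 CPM. Of the genes listed under inhibitors and turnover 2 of 8 were higher and 2 lower, close to the shares over all genes. Among them were Dtx3 (62.5 and 5.76 CPM), Dtx2 (12.1 and 73.6 CPM) and Fbxw7 (17.4 and 40.9 CPM), with Itch at 49.6 and 34.9 CPM.

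Of the genes known to respond to Notch in Sertoli cells, Gdnf had 24.6 CPM in the Sertoli-like class, 18.2 CPM in the peritubular myoid-like class and no UMI in stromal-like cells. Cyp26b1, which degrades retinoic acid, had 361 CPM in the stromal-like class, 155 CPM in the peritubular myoid-like class and 12.9 CPM in Sertoli-like cells, and all 22 UMIs of Cyp26a1 lay in germ cells.

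The genes whose levels ran most like each member over the 7 classes were taken among 6530 genes with at least 200 UMIs, by Pearson's r of log2 (CPM + 1), all points coming from 1 library. They were Vps50, Rufy3 and Pigq for Notch1 (r of 0.93 to 0.95) and Ppt1, Akt1s1 and Ctsl for Notch2 (0.98 to 0.99). For Notch3 they were Lhfp, Dnajc1 and Gpc3 (0.99), and for Jag1 Arl1, Pdia3 and Srm (0.93 to 0.95). For Hes1 they were Mprip, Rchy1 and Zer1 (0.97 to 0.99), and for Hey1 Exosc7, Dmap1 and Pde6d (0.97 to 0.98). For Heyl they were Myl9, a smooth muscle myosin light chain, with Naca and Ndnl2 (0.98 to 0.99), and for Nrarp Pacrgl, Eef1e1 and Nmt2 (0.996 to 0.997). With 7 points such values are common, since 283 genes reached 0.95 with Nrarp and 33 with Notch3, against none with Notch1. Among the members themselves, Jag2 and Hey1 had r of 0.89, Notch3 and Heyl 0.83, and Notch1 and Notch3 -0.66.

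In GENCODE M21, exons of a gene on the opposite strand overlap those of Notch3 (Gm17276) and Nrarp (Gm38287), and both are in the count table. They had 3 and 2 UMIs in the kept cells, none of them in pericyte-like cells. Exons of Notch1 overlap those of 0610009E02Rik and Gm13568 on the opposite strand, and exons of Notch2 those of Gm42820 on the same strand, none of which is listed in the count table, so their share of reads could not be checked. Whether the counting used strand is not given in the sources used here.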

How the data were processed

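The authors aligned reads of a Chromium v2 library with Cell Ranger 2.1.0, per the labels, to the mouse build mm10 (GRCm38) and deposited raw UMI counts per gene and barcode. Total depth was 11358045 UMIs over 970 barcodes, of which 18722 genes had at least 1. Removed were 10 barcodes under 500 genes, 36 with 10% or more of their UMIs from mitochondrial genes and 4 doublets called by scrublet (scanpy 1.11.5, expected rate 0.01). Cells were clustered with Seurat 5.3.0 (R 4.3.3), with log-normalization to 10000, 14 principal components and a resolution of 0.5, and germ cells were clustered again. The pathway genes, 6 of which were among the variable genes in the first step and 4 in the second, were left out of the variable genes.

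A cluster took the name of the marker list with the highest mean difference in log-normalized level, with at least 3 of its markers in 10% of cells. The rule on its top 10 genes was changed from summed to log-normalized levels after 1 hemoglobin-rich barcode was seen to lead a cluster. A progenitor-like cell with 831174 CPM of the red blood cell markers, per its own UMIs, stayed among the germ cells. These markers summed to 7097 CPM in the progenitor-like class and 101 CPM in the differentiating-like class. Levels have exact Poisson, ratios exact conditional binomial (scipy 1.17.1) and shares exact binomial 95% intervals. The limit that a count of 0 allows was set at 3 counts for levels and shares, and bounds of ratios with a 0 are ends of the exact interval. The single value of a ratio with a sum of 0 also used 3 counts for that sum. Thinning kept 5000 UMIs a cell. Pathway genes named are the up to 4 of each role with the most UMIs, and genes most alike are the 3 with the highest r for each member with at least 50 UMIs. The ratio step recovered changed genes on simulated Poisson sums, the model that its interval assumes. That simulation held no variation between cells, so it cannot show how the intervals fare with such variation. Members and lists were chosen with earlier results of these data known. The 13 planned and 2 added alternatives cover filters, clustering, the denominator, thinning, the choice of cells and the cell with the most UMIs.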

Additional observations from a re-analysis of the deposited data

How the results depend on the processing

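Over 13 planned and 2 later alternatives, 45 ratios of single genes (30 with an interval that excluded equality) stayed within the interval of the reported ratio 610 times, left it 42 times and reversed 4 times. Beside these reversals, the sign changed 20 times among the 15 ratios whose interval included equality. With a mitochondrial limit of 5%, which kept 442 cells, the log2 ratio of Hes1 between somatic and germ cells was 0.50 and that of Nrarp between Sertoli-like and other somatic cells -0.36. The stromal-like log2 ratio of Heyl was 0.13 with no mitochondrial limit and 0.11 with 20 principal components, settings in which the 10 pericyte-like cells were placed among stromal-like cells. Under the same limit of 5% the log2 ratio of Notch3 between somatic and germ cells was 1.90 and that of Heyl 3.10. This limit left 67 germ cells, and a sum of 0 enters a ratio as 3 counts, so these 2 values can be bounds. The germ cell counts behind them are not given here, and the cause of the shift was not tested. Of the 42 values that left the interval, 14 came from that limit and 8 from thinning. The germ cell share of 35.2% was 15.2% with that limit, 40.9% where cells were chosen by germ cell marker UMIs and 30.5% without the shallow germ cell cluster. At a resolution of 0.3 the SSC-like and progenitor-like cells formed 1 cluster of 193 cells named progenitor. Germ cell subclasses could not be named under the limit of 5%, so the count of members highest in a somatic class has no value there. That count was 5 at a resolution of 1.2 and 6 otherwise. Leaving out the mixed cluster and leaving out the shallow germ cell cluster were chosen after seeing the data. No paired analysis was possible because the series is represented here by 1 library. A level of a few UMIs cannot show differences of the size seen between other classes, which holds for Jag1, Jag2 and Hey1 in most of them.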

Other observations

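A few cells fell outside the comparisons. Both of the 2 endothelial-like cells had Hes1, with 6 UMIs in all, and 1 of them had 2 Nrarp UMIs. Among 13 T cell-like cells, Notch1 had 3 UMIs in 2 cells, Jag1 had 2 UMIs in 2 cells, Hes1 had 5 UMIs in 1 cell, and Notch3, Jag2, Hey1 and Nrarp had none. No UMI of any of the 9 genes was found in 106 of 256 Sertoli-like cells, 17 of 111 SSC-like cells and 0 of 10 pericyte-like cells. These counts are without thinning, at median depths of 8344.5, 22554 and 5976.5 UMIs, and the part of depth in them was not tested.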
